A study of Mus musculus with 12 samples.

Results

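Lysyl oxidases and the enzymes that trim procollagen were followed here as 8 genes in sorted mouse muscle progenitors: the lysyl oxidase genes Lox, Loxl1, Loxl2 and Loxl3, the procollagen C-proteinase Bmp1, its enhancers Pcolce and Pcolce2, and the procollagen N-proteinase Adamts2. The members were chosen by gene symbol, and all 8 were found once each among the 54100 genes of the count table. All 8 also passed the filter on low counts, which left 8161 genes for testing. Fibro-adipogenic progenitors (FAPs), the mesenchymal cells of muscle that carry the surface receptor Pdgfra, were sorted from the plantaris, a calf muscle that enlarges when it is made to carry extra load. There were 4 groups of 3 libraries. The control sham and control overload groups came from mice with Pdgfra-CreERT2 alone, and the cdKO sham and cdKO overload groups from mice that carried Pdgfra-CreERT2 with Yap1 flox/flox and Taz flox/flox. All 4 groups thus carried the inducible Cre recombinase driven from Pdgfra, and the sort selected the cells in which that promoter is used. Yap1 and Taz (the latter listed in the count table as Wwtr1) encode paired transcriptional coactivators that respond to mechanical load. The sources used here do not give the dose and timing of Cre induction, the time after surgery, the age of the mice, the floxed exons or whether mice were pooled.

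Collagen molecules are secreted as procollagens with a propeptide at each end. BMP1-type proteinases remove the C-propeptide, helped by the enhancer proteins that Pcolce and Pcolce2 encode, ADAMTS2 removes the N-propeptide, and the trimmed molecules then assemble into fibrils. Lysyl oxidases are secreted copper enzymes that oxidise lysine side chains of collagen and elastin, and the products join into the crosslinks that stiffen the matrix. BMP1 also releases the LOX enzyme from its own propeptide, so trimming and crosslinking meet at that proteinase.

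The lysyl oxidase genes share a catalytic region, and a stretch that codes for its copper-binding histidines is shown for the 3 LOX-like genes to let the family likeness be seen base by base. Each stretch is 33 bases long, reads 5′ to 3′ on the coding strand and spans an exon junction, so the genomic interval includes an intron. In build GRCm38 it lies in exons 3 and 4 of Loxl1 at chr9:58293720-58294381 on the minus strand, in exons 10 and 11 of Loxl2 at chr14:69682316-69689037 on the plus strand, and in exons 10 and 11 of Loxl3 at chr6:83049995-83050125 on the plus strand. Capitals mark the 20 bases that are identical in all 3 genes.
Loxl1: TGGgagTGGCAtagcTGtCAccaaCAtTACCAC
Loxl2: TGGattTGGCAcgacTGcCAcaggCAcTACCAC
Loxl3: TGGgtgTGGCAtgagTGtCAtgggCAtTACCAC
The histidine codons and the codons for the tryptophans, cysteine and tyrosine among them carry the capitals, and the codons between them differ. Over these bases Loxl2 and Loxl3 were 75.8% identical, Loxl1 and Loxl3 75.8%, and Loxl1 and Loxl2 66.7%. Lox matched Loxl1 at 32 of the 33 bases. Across the annotated transcripts of all 8 members, the longest run of bases shared by any pair was 32, between Lox and Loxl1, followed by 28 between Loxl1 and Loxl2 and 26 between Loxl2 and Loxl3. The sources used here give no read length, so how often such a run could divide reads between the genes was not tested.

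Library totals ran from 336437 to 1564581 counts, and a floor of 3 counts was worth 1.95 to 9.72 CPM (counts scaled to library size) depending on the library. Wwtr1 checked the labels: it averaged 119 ± 9.95 CPM (SD, n = 3) in control sham and 141 ± 28.4 in control overload, against 34.8 ± 6.97 in cdKO sham and 20.2 ± 2.13 in cdKO overload, and was lower in the cdKO under both loads (edgeR adjusted p below the threshold of 0.05 in each). Yap1 averaged 97.9, 59.5, 64.5 and 32.0 CPM in the same order and did not pass between genotypes. Pdgfra was present in every library at 259 CPM or more, but its level was not constant. In the cdKO it fell with overload from a mean of 686 to 324 CPM (log2 fold change -1.09 ± 0.26 (SE), edgeR adjusted p = 0.00620). In control it was at 522 and 376 CPM and did not pass (-0.48 ± 0.26, adjusted p = 0.186). The summed level of 8 FAP markers was 62341 to 82379 CPM in control sham and 68136 to 71423 in cdKO sham, against 21286 to 28072 in control overload and 30648 to 43971 in cdKO overload, and with overload 4 of the 8 fell and 1 rose in each genotype. Of all tested genes 11% fell and 10.6% rose in control, and 6.68% fell and 6.37% rose in the cdKO. Gsn and Dcn made up most of the sham sums, at means of 38538 and 26249 CPM in control and 37458 and 21803 in the cdKO. After overload these 2 genes were at 6646 and 5241 CPM in control and 11042 and 7771 in the cdKO. The 1 marker that rose, Col1a1, went from 3759 to 10125 CPM in control and from 5436 to 12235 in the cdKO. Counts from the Y chromosome were 72.7 and 88.7 CPM in control overload replicates 2 and 3, against 246 in control overload replicate 1 and 131 to 337 over all the other 10 libraries. These libraries thus stood apart within their group, and the called changes in control are given with and without each of them. Fewer cells of a kind and less RNA per cell cannot be told apart in such bulk libraries.

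With overload the transcripts of Lox and Loxl2 rose, that of the C-proteinase enhancer Pcolce2 fell, and Loxl1, Loxl3, Pcolce and the proteinases Bmp1 and Adamts2 did not pass. In control FAPs, Lox was 17.0-fold and Loxl2 2.22-fold higher after overload, and Pcolce2 fell to 0.224 of its sham level. Of the 8 members 2 were higher, 1 was lower and 5 did not pass, where 21.7% of all tested genes were called, 10.6% higher and 11% lower. The median log2 fold change of the members was 0.35, against -0.05 over all genes tested. In cdKO FAPs the same 3 genes passed in the same directions, 2 higher and 1 lower, where 13% of genes were called, 6.37% higher and 6.68% lower, and the medians were 0.44 and -0.02. Of these cdKO calls only that of Lox held in every alternative: those of Pcolce2 and Loxl2 were lost in some, given with each gene. The 2 overload comparisons contrast different libraries, but both were tested in a shared fit over all libraries. Their p-values are therefore not independent, and the cdKO call of Pcolce2 was lost without some of the control libraries. No member passed between genotypes under either load.

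**Figure D1:**
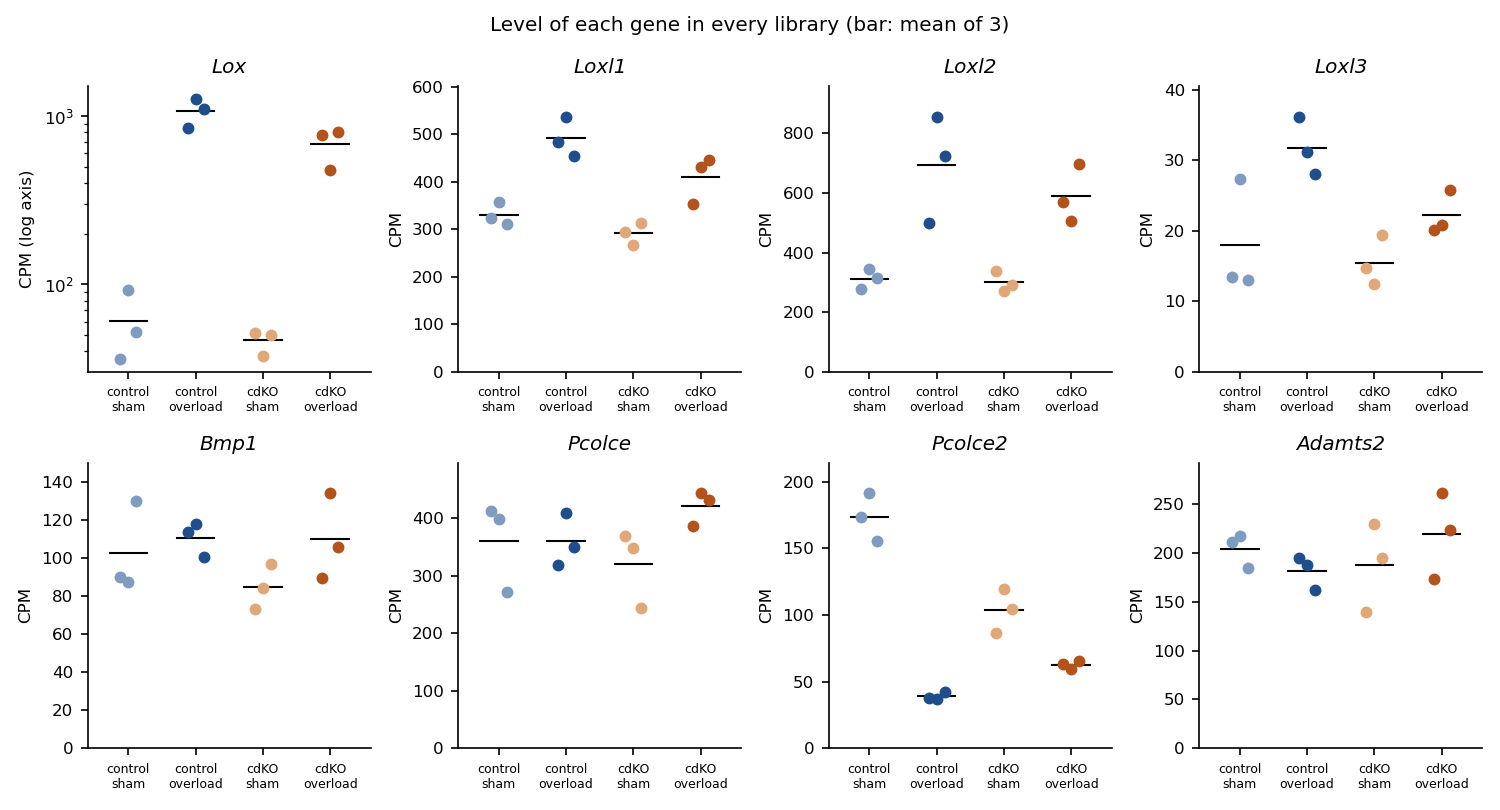
Level in CPM of each of the 8 genes in every library, by group, with points for libraries and a bar for the mean of 3; the axis is logarithmic for Lox and starts at 0 for the others. Lox reaches 477 to 1262 CPM in the 6 overload libraries against 36.0 to 93.0 in the 6 sham libraries, and Pcolce2 is the gene whose sham and overload points separate downward in both genotypes.

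Lox (chr18:52516067-52529867, minus strand), the founding lysyl oxidase, was read at 36.0, 93.0 and 51.8 CPM in the control sham libraries and at 853, 1262 and 1097 in the control overload libraries. The groups did not overlap, and the lowest overload library lay far above the highest sham library. The log2 fold change was 4.09 ± 0.33 (SE), with a 95% interval of 3.41 to 4.77 and an adjusted p of 1.14e-08 (edgeR quasi-likelihood test). Only 1 of the 8161 tested genes had a smaller p, and 26 had a higher log2 fold change. The change was 3.99 without control overload replicate 2, 4.12 without replicate 3 and 4.17 with Y-linked CPM as a covariate, and passed each time. In the cdKO, Lox was at 51.3, 37.5 and 50.3 CPM after sham surgery and at 766, 477 and 806 after overload. That change was 3.90 ± 0.33, with an interval of 3.22 to 4.58 and an adjusted p of 3.26e-08. Again 1 gene had a smaller p, and 10 genes had a higher log2 fold change. In counts, Lox went from 16 to 68 per library in control sham to 495 to 1944 in control overload, and from 26 to 36 in cdKO sham to 367 to 718 in cdKO overload.

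The order of Lox levels was control overload at 1071 ± 206 CPM (SD, n = 3), cdKO overload at 683 ± 180, control sham at 60.3 ± 29.4 and cdKO sham at 46.4 ± 7.70. The neighbours within a load were not separated by the test. In overloaded muscle every cdKO library lay below every control library, with a log2 difference of -0.65 ± 0.28, an interval of -1.22 to -0.08, an unadjusted p of 0.0268 and an adjusted p of 0.653. Control and cdKO sham libraries overlapped, with a difference of -0.46 ± 0.35. Averaged over both loads the difference was -0.55 ± 0.22 (adjusted p = 0.877). The overload response itself differed between genotypes by -0.19 ± 0.45, with an interval of -1.11 to 0.73 and an adjusted p of 0.987.

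Loxl2 (chr14:69609068-69695834, plus strand) encodes a lysyl oxidase with scavenger receptor domains that acts on basement membrane as well as fibrillar collagen. Its control sham libraries read 277, 346 and 314 CPM, and its control overload libraries 498, 856 and 724. In the cdKO it was at 337, 273 and 290 CPM after sham surgery and at 569, 504 and 696 after overload. The overload libraries were all above the sham libraries in both genotypes, and the overload libraries of both genotypes overlapped. The rise was 1.15 ± 0.25 on the log2 scale in control (adjusted p = 0.00176) and 0.98 ± 0.25 in the cdKO (adjusted p = 0.0107), and the difference between these responses was -0.17 ± 0.35. The control call held without control overload replicate 2 (1.002, adjusted p = 0.0162) and without replicate 3 (1.16, adjusted p = 0.00794), the libraries with low Y counts. It was lost without control overload replicate 2 and control sham replicate 3 together (0.99, adjusted p = 0.0568) and with Y-linked CPM as a covariate (0.94, adjusted p = 0.0776). The cdKO call was lost without cdKO sham replicate 2 (adjusted p = 0.0610) or without cdKO overload replicate 3 (adjusted p = 0.0757).

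Loxl1 (chr9:58287738-58313186, minus strand), the family member most tied to elastic fibres, had groups that separated with a smaller distance. Control libraries read 324, 357 and 311 CPM after sham surgery and 482, 537 and 454 after overload, and cdKO libraries 295, 267 and 313 against 354, 430 and 446. No sham and overload library overlapped in either genotype. The log2 fold changes were 0.57 ± 0.22 in control (adjusted p = 0.0707) and 0.49 ± 0.22 in the cdKO (adjusted p = 0.149), so neither passed. In control Loxl1 did pass with DESeq2 size factors in edgeR (0.66, adjusted p = 0.0464) and in DESeq2 (0.66, adjusted p = 0.00909), and in the cdKO in DESeq2 (0.54, adjusted p = 0.0383). Loxl3 (chr6:83034173-83052562, plus strand), a relative of Loxl2, gave only 4 to 48 counts per library. In control its mean was 17.9 ± 8.15 CPM after sham surgery and 31.8 ± 4.12 after overload, and in the cdKO 15.5 ± 3.49 and 22.2 ± 3.13. The overload libraries lay above the sham libraries of the same genotype, with changes of 0.71 ± 0.38 and 0.56 ± 0.39 that did not pass (adjusted p = 0.185 and 0.381).

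Without a test, the share of each gene in the counts of the 4 lysyl oxidase genes gives their balance. These are 3′ counts that were not divided by gene length. Lox made up 8.11 ± 2.93% (SD, n = 3) of them in control sham and 46.7 ± 1.03% in control overload, and 7.06 ± 0.61% in cdKO sham and 39.7 ± 5.86% in cdKO overload. Loxl1 went from 46.1 ± 3.35% to 21.8 ± 3.44% in control and from 44.7 ± 2.2% to 24.4 ± 4.94% in the cdKO. The share of Loxl2 was 43.4 ± 1.89% and 29.98 ± 2.90% in control sham and overload, and 45.9 ± 2.62% and 34.6 ± 1.13% in the cdKO. Loxl3 stayed between 1.16% and 3.32% in every library. The summed level of the 4 genes was 721 ± 90.2 CPM after sham surgery and 2286 ± 409 after overload in control, and 653 ± 57.0 and 1705 ± 270 in the cdKO.

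**Figure D2:**
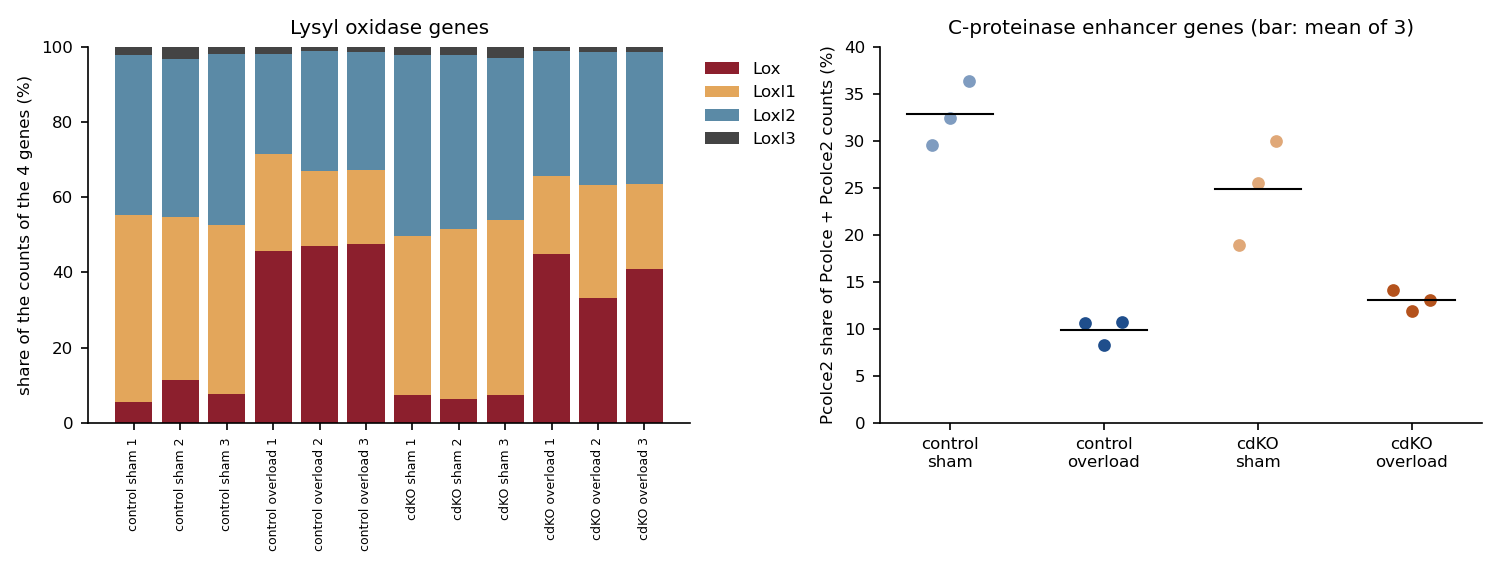
Left, the share of Lox, Loxl1, Loxl2 and Loxl3 in their summed counts in each of the 12 libraries, in percent; right, the share of Pcolce2 in the counts of Pcolce plus Pcolce2, with points for libraries and a bar for the mean of 3. The Lox share lies between 33.3% and 47.6% in the 6 overload libraries and between 5.54% and 11.3% in the 6 sham libraries, and the Pcolce2 share is 8.28% to 14.1% after overload against 19.0% to 36.4% after sham surgery.

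Pcolce2 (chr9:95637601-95698096, plus strand) encodes the second procollagen C-proteinase enhancer. It was read at 173, 191 and 156 CPM in control sham and at 37.9, 37.0 and 42.0 in control overload. The groups did not overlap and the overload libraries lay close together. The log2 fold change was -2.16 ± 0.24, with an interval of -2.66 to -1.66 and an adjusted p of 9.39e-07. Of the tested genes 24 had a smaller p and 219 a lower log2 fold change. The value was -2.08 without control overload replicate 2, -2.18 without replicate 3 and -2.25 with Y-linked CPM as a covariate, and passed each time. In the cdKO it was at 86.2, 120 and 104 CPM after sham surgery and at 63.3, 59.8 and 65.1 after overload. These groups did not overlap either, and the fall of 0.73 ± 0.24 on the log2 scale passed with an adjusted p of 0.0420. That call did not hold in any of the 6 alternative analyses, where the change was -0.72 to -0.66 and the adjusted p 0.0600 to 0.580 (0.0607 with the replicate number as a block), nor in 10 of the 12 that left out a library, where the adjusted p reached 0.168. It held without control overload replicate 1 or cdKO sham replicate 1.

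The 4 groups of Pcolce2 fell in the order control sham at 173 ± 17.9 CPM, cdKO sham at 103 ± 16.8, cdKO overload at 62.8 ± 2.70 and control overload at 39.0 ± 2.68, with no overlap between any neighbouring groups. Relative to control, the cdKO was thus on opposite sides under the 2 loads. The difference was -0.74 ± 0.23 in sham muscle, with an interval of -1.22 to -0.27 (unadjusted p = 0.00326, adjusted p = 0.999). It was 0.69 ± 0.25 in overloaded muscle, with an interval of 0.18 to 1.2 (unadjusted p = 0.0104, adjusted p = 0.572). Neither passed the adjustment over 8161 genes. The test of the difference between the overload responses gave 1.43 ± 0.34, with an interval of 0.74 to 2.13, an unadjusted p of 0.000261 and an adjusted p of 0.298, and 4 genes had a smaller p. The estimate was 1.29 to 1.56 over all the alternatives, and the adjusted p never passed, with a lowest value of 0.133 without control overload replicate 1.

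Pcolce (chr5:137605103-137613784, minus strand), the first enhancer, showed no such fall. Its level in control was 361 ± 77.0 CPM after sham surgery and 360 ± 46.1 after overload, and in the cdKO 320 ± 67.2 and 421 ± 30.3. The control groups overlapped (-0.01 ± 0.24, interval -0.51 to 0.49), and the sign of this value changed with the scaling. The cdKO overload libraries, at 386 to 443 CPM, lay above the cdKO sham libraries, at 244 to 368, without passing (0.39 ± 0.24, adjusted p = 0.311). Pcolce2 counts were 32.8 ± 3.39% of the counts of both enhancers in control sham and 9.88 ± 1.38% in control overload, and 24.8 ± 5.56% and 13.0 ± 1.10% in the cdKO.

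Promoters of 3 members, Pcolce, Pcolce2 and Adamts2, were taken from the RefSeq table for GRCm38.p6, from 250 bases before to 50 after the start site. They were searched on both strands for GGAATG, the core letters bound by TEAD factors through which YAP1 and TAZ act, and for TGANTCA, the AP-1 letters. Neither was found in any of the 3 windows. Over all 32851 listed promoters, 14.7% held the first and 7.81% the second. Promoters on chromosome 18, where Lox lies, were left out for the members but not for these shares. No promoter of Lox, Loxl1, Loxl2, Loxl3 or Bmp1 was searched.

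The proteinases showed no passing change. Bmp1 (chr14:70474558-70520234, minus strand), the C-proteinase, averaged 102 ± 23.6 CPM after sham surgery and 111 ± 8.98 after overload in control, and 84.8 ± 11.7 and 110 ± 22.4 in the cdKO. The groups overlapped in both genotypes, and the log2 changes with overload were 0.14 ± 0.25 (interval -0.37 to 0.65) and 0.38 ± 0.25 (interval -0.13 to 0.88). Adamts2 (chr11:50602084-50807573, plus strand), the N-proteinase, averaged 205 ± 17.5, 182 ± 17.0, 188 ± 45.8 and 219 ± 44.3 CPM in the same order. Its changes were -0.18 ± 0.24 (interval -0.67 to 0.32) and 0.21 ± 0.24 (interval -0.27 to 0.70). These intervals leave out changes of the size seen for Lox and, in control, for Pcolce2, and they leave room for changes of up to 1.84-fold for Bmp1 and 1.63-fold for Adamts2 in the cdKO.

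**Figure D3:**
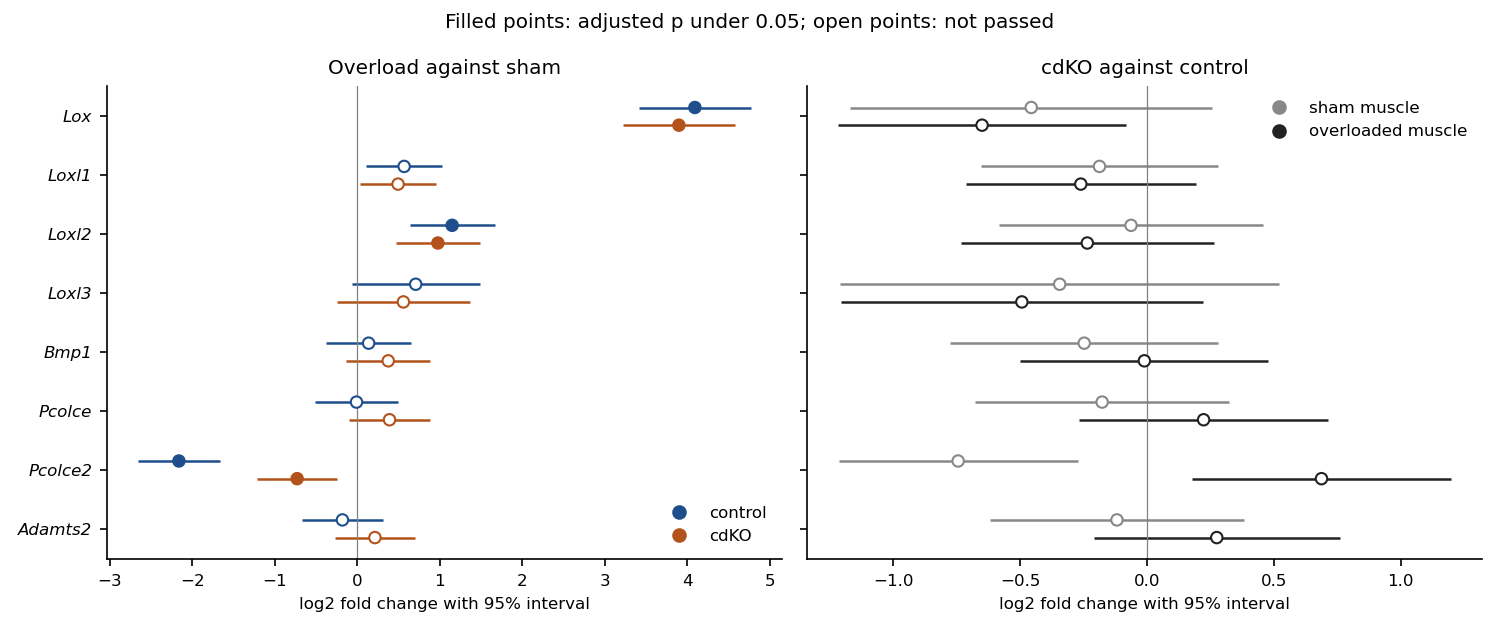
Log2 fold change of each of the 8 genes with its 95% interval from edgeR, for overload against sham in each genotype on the left and for cdKO against control under each load on the right; filled points passed an adjusted p of 0.05. On the left Lox, Loxl2 and Pcolce2 are filled in both genotypes, and on the right no point is filled, with Pcolce2 at -0.74 in sham and 0.69 in overloaded muscle.

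Counted by overlap alone, 4 members (Lox, Loxl1, Loxl2 and Loxl3) had every control overload library above every control sham library, and 1 (Pcolce2) had every one below, where 18% and 18.9% of tested genes did so. In the cdKO 5 members, these 4 and Pcolce, lay above and Pcolce2 below, against 15.4% and 14.7% of tested genes.

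Between genotypes in overloaded muscle, 0 of 8 members passed, where 0.0368% of all genes tested were called, 0.0123% higher and 0.0245% lower. Lox, Loxl1 and Loxl3 had every cdKO library below every control library, where 5.31% of tested genes did, and Pcolce2 had every cdKO library above, where 5.38% did. Loxl1 differed by -0.26 ± 0.22, Loxl2 by -0.23 ± 0.24 and Loxl3 by -0.49 ± 0.35 on the log2 scale. In sham muscle 0 of 8 passed, where 0.0123% of genes were called, and all 8 differences were negative, from -0.74 for Pcolce2 to -0.06 for Loxl2. Their median was -0.22, against 0.01 over all genes tested, and the share of all genes with a negative difference was not counted. The 8 genes are not independent, and without control sham replicate 2 the differences of Lox, Loxl2 and Loxl3 were 0.09, 0.03 and 0.19. Pcolce2 was the 1 member with no overlap in sham muscle, where 4.45% of tested genes were lower and 5.44% higher without overlap. In the test of different overload responses 0 of 8 members and 0% of all genes passed in edgeR, and DESeq2 called 1 gene. An unadjusted edgeR p under 0.05 was seen for 427 of the 8161 genes tested, near the number that this threshold alone would give. Averaged over both loads 0 of 8 members passed, where 0.0123% of genes did. The genotype comparisons share libraries with the overload comparisons.

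Other genes of the pathway were taken from 6 lists with 43 genes, of which 36 could be tested. The counts of each of the 6 lists, here and below, stand beside the shares over all tested genes. With overload 10.6% of these rose and 11% fell in control, and 6.37% rose and 6.68% fell in the cdKO. Of 7 fibrillar procollagen genes, 3 rose and 4 did not pass in control: Col5a2 (1.69 ± 0.25), Col3a1 (1.53 ± 0.27) and Col1a1 (1.43 ± 0.26), the last of these encoding a chain of the main procollagen that BMP1 and ADAMTS2 trim. In the cdKO 3 rose and 4 did not pass, with the same genes at 1.18 ± 0.25, 1.39 ± 0.27 and 1.17 ± 0.26. Col5a1 was at 0.63 ± 0.24 and 0.59 ± 0.24 without passing. Of 7 genes for elastic fibre proteins, 2 rose in control, Emilin1 (1.78 ± 0.35) and Mfap5 (1.01 ± 0.25), 1 fell, Mfap2 (-0.99 ± 0.29), and 4 did not pass. In the cdKO 3 rose, Emilin1 (1.06 ± 0.34), Mfap5 (1.43 ± 0.25) and the fibrillin gene Fbn1 (0.78 ± 0.24), and 4 did not pass, Mfap2 among them at -0.01 ± 0.28. Fbn1 was at 0.66 ± 0.24 in control (adjusted p = 0.0517). Eln, the elastin gene, named after its values were seen, was at -0.94 ± 0.37 in control and -0.74 ± 0.36 in the cdKO without passing.

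Lysyl hydroxylation prepares collagen lysines for stable crosslinks before secretion, and 3 of its 5 genes rose in each genotype. Plod2, the lysyl hydroxylase of collagen telopeptides, was at 1.70 ± 0.26 in control and 1.62 ± 0.25 in the cdKO, and Plod3 was at 1.13 ± 0.27 and 0.97 ± 0.27. Fkbp10, a chaperone that works with the enzyme of Plod2, rose by 1.72 ± 0.34 in control and did not pass in the cdKO (0.74 ± 0.31, adjusted p = 0.120). Plod1 did not pass in either genotype (-0.58 ± 0.25 and -0.42 ± 0.24). The remaining rise in the cdKO was that of Colgalt1, a collagen galactosyltransferase named after its values were seen (1.35 ± 0.34, against 0.57 ± 0.34 in control, where it did not pass).

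Proteins that bind the members or hold their substrates in place included the 2 largest rises of the lists, Postn and Tnc. Of 9 genes, 5 rose, 1 fell and 3 did not pass in control, and 4 rose, 1 fell and 4 did not pass in the cdKO. Postn encodes periostin, which brings BMP1 to its LOX substrate on fibronectin, and went from 46.7 to 2151 CPM in control (5.51 ± 0.41) and from 39.9 to 1883 in the cdKO (5.61 ± 0.41). Tnc, encoding tenascin C, went from 7.32 to 1524 CPM and from 21.8 to 1351, with control sham levels too near the floor for a firm fold. Thbs1, encoding thrombospondin 1, rose by 1.63 ± 0.30 and 1.57 ± 0.30. Fbln5, encoding fibulin 5, which guides elastin assembly and binds LOXL1, fell in control (-2.32 ± 0.38) and in the cdKO (-1.64 ± 0.38). The remaining rises, named after their values were seen, were those of Sparc (1.30 ± 0.25 and 0.94 ± 0.25) and, in control, Efemp2. Efemp2 was at 5.93 ± 5.54 CPM in control sham, again too near the floor for a firm fold, and it did not pass in the cdKO.

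Among the remaining processing enzymes, 5 of 10 could be tested, of which 2 rose, 1 fell and 2 did not pass in control, and 1 rose, 1 fell and 3 did not pass in the cdKO. The proprotein convertase gene Pcsk5 rose by 1.96 ± 0.29 in control and 1.51 ± 0.28 in the cdKO, and its relative Pcsk6 fell, at -2.61 ± 0.31 and -2.02 ± 0.30. Furin, the convertase known to activate BMP1, rose by 0.98 ± 0.26 in control and did not pass in the cdKO (0.65 ± 0.25). Atox1, a copper chaperone, was at -0.63 ± 0.34 and 0.22 ± 0.33 without passing. Of the 3 small proteoglycans in the list, Bgn, encoding biglycan, rose in control (1.25 ± 0.24) and in the cdKO (0.78 ± 0.24). Ogn, encoding mimecan, fell (-1.73 ± 0.27 and -1.21 ± 0.27), as did Dcn, encoding decorin (-2.32 ± 0.30 and -1.49 ± 0.29). No gene of the 6 lists passed in any comparison between genotypes.

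**Figure D4:**
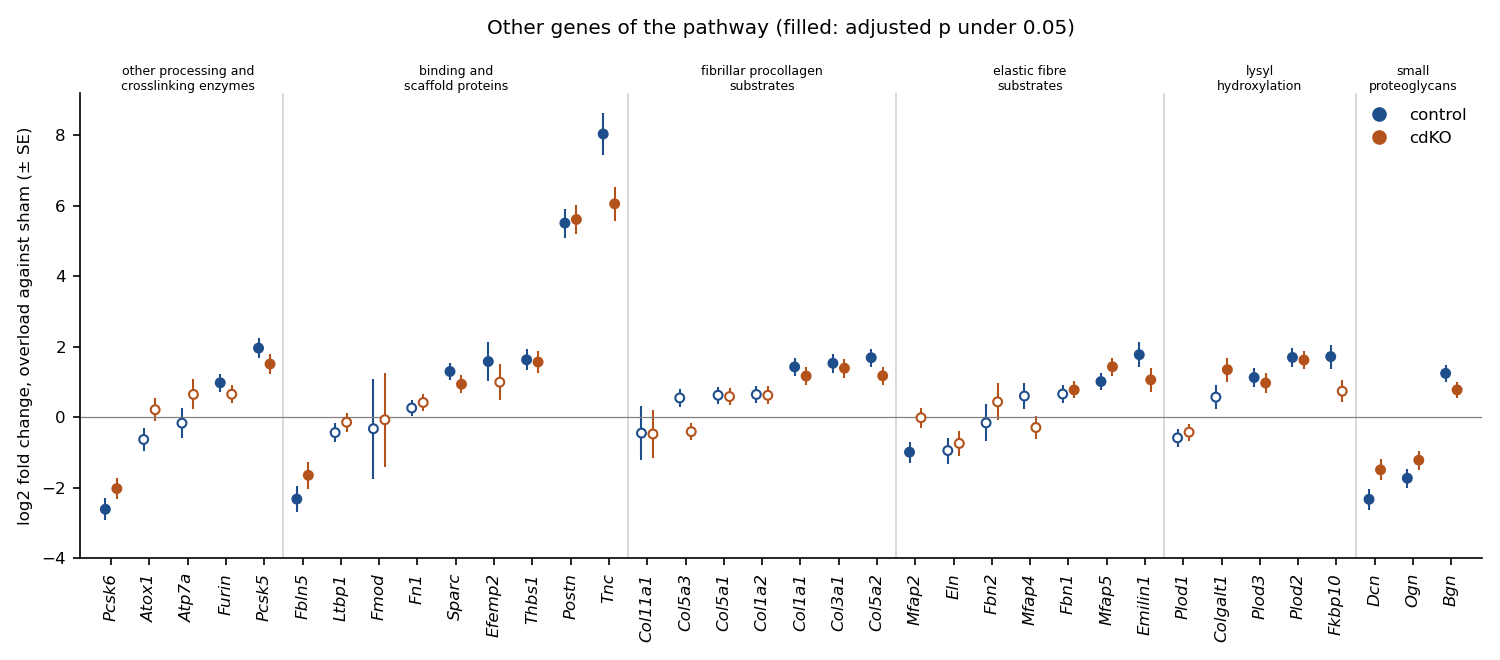
Log2 fold change, with its SE, of the 36 tested genes of the 6 pathway lists for overload against sham in control and in cdKO FAPs; filled points passed an adjusted p of 0.05. Postn and Tnc stand above the rest in both genotypes, and Pcsk6, Fbln5, Dcn and Ogn lie below 0 in both.

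Some markers of other cell types also differed between the groups. The summed level of 6 tenocyte markers was 107 to 381 CPM in control sham and 2362 to 5117 in control overload, and 209 to 480 and 3714 to 4036 in the cdKO. Of the 3 tested markers 1 rose in each genotype, Thbs4, at 164 and 3579 CPM in control, while the defining tenocyte genes Tnmd, Scx and Mkx never exceeded 8, 17 and 6 counts in a library. Mean Scx was 1.501 CPM in control sham and 10.3 in control overload, and 4.81 and 16.0 in the cdKO, at or near the floor in sham muscle. The endothelial sum was 104 to 178 CPM in control sham and 18.2 to 94.8 in control overload, and 73.3 to 166 and 25.8 to 53.3 in the cdKO. Pericyte and smooth muscle markers summed to 212 to 288 CPM and 92.2 to 145 in control, and to 203 to 258 and 111 to 128 in the cdKO. Of the tested markers, 1 of 5 endothelial and 2 of 6 pericyte genes fell in control, and 2 of 5 and 1 of 6 in the cdKO. Over all tested genes 11% fell and 10.6% rose in control, and 6.68% fell and 6.37% rose in the cdKO. With so few markers, these counts do not show a change in a cell type. The sum of 5 erythroid markers was 0 to 4.50 CPM in control sham and 12.3 to 281 in control overload, without a passing gene, and 5.50 to 130 in cdKO sham and 0 to 1.123 in cdKO overload, where 1 gene fell. Of the remaining lists, 1 Schwann cell marker fell in each genotype and 1 myoblast marker rose in control, while no tested macrophage or myofibre marker passed and no lymphocyte marker could be tested. No marker of the 10 lists passed between genotypes. The part of these cells, or of their RNA, in the changes of Lox, Loxl2 and Pcolce2 was not tested.

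Genes with the most similar pattern were sought among 5489 tested protein-coding genes with a mean of at least 20 CPM. The measure was the root mean square difference in centred log2 CPM over the 12 libraries. For Lox they were Cxcl5 (0.44), Ccl2 (0.52), Il11 (0.53), F2rl1 (0.53) and Inhba (0.54), where the median gene was at 2.05. Nearest to Pcolce2 were Ackr3 (0.23), Nova1 (0.25) and Aftph (0.26), with a median of 0.87. Loxl2 lay nearest to Slc25a5 (0.10), Sod3 (0.14) and Hprt (0.15), with a median of 0.65. Loxl1 lay nearest to Copa, Larp7 and Ppm1g (0.15 to 0.16), and Loxl3 to Copz2, Ubac2 and Mrps18c (0.21 to 0.22). The 3 nearest were Zzz3, Cfl2 and Susd6 for Bmp1, Armcx2, Arl3 and Il1rl2 for Pcolce, and Epn1, Pros1 and Col4a1 for Adamts2. Among the members themselves the closest pair was Loxl1 and Loxl3 (0.23), and Lox and Pcolce2 were 2.75 apart. The median gene was at 0.49 to 0.58 for Loxl1, Loxl3, Bmp1, Pcolce and Adamts2.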

How the data were processed

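RNA of 1000 sorted Pdgfra-positive cells per tube was made into libraries by a published low-input 3′ protocol, per the labels' protocols. The authors deposited raw counts per gene, in 1 table with a column for each of the 12 libraries. Build GRCm38 was used with HISAT2 2.2.1, Trim Galore 0.6.6, DESeq2 1.26.0 and featureCounts 2.0.1, per the submitters' processing notes. The annotation release, strand setting and any use of molecular identifiers are not given there. All 54100 gene identifiers were found in GENCODE M21, the source of coordinates and transcript sequence. Exons of Loxl3 overlap Htra2, those of Pcolce overlap Fbxo24 and Gm36266, those of Loxl2 overlap Gm27177 and Mir6950, and Lox has an antisense gene (AC161119.1); those partners that were counted had 0 to 7 counts over all libraries.

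Groups came from the labels. The labels do not say that libraries are separate animals, so p-values measure the spread between libraries, which may be technical; no 2 libraries were duplicates (chi-square per degree of freedom 3.22 to 19.2 within groups). Counts were tested in edgeR 4.0.16 (R 4.3.3) over all 12 libraries: filterByExpr, TMM factors, robust quasi-likelihood test and Benjamini-Hochberg adjustment over 8161 genes, with calls at 0.05. CPM are counts over the filtered library size times its TMM factor. SE is the log2 fold change over the root of F, and intervals are 95%. The scripts were tested on simulated data. Alternatives were DESeq2 size factors, DESeq2 1.42.0, no filter on low counts, the replicate number as a block, a Y-linked CPM covariate, leaving out control overload replicate 2 with control sham replicate 3, and leaving out each library.

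The members, gene lists, marker lists and alternatives were chosen with earlier results of these data known. All members are named. Of each pathway list at most 4 genes are named, those with the smallest p for overload in control, plus any called between genotypes; Sparc, Efemp2, Colgalt1, Eln and the untested relatives Loxl4, Tll1, Tll2, Adamts3 and Adamts14 are named besides, after their values were seen. Replicate numbers were not taken to pair libraries. Deviations of same-numbered libraries correlated at -0.23 to 0.27, over 0.1 in 6 of 18 pairs. Differently numbered libraries were not compared, so whether the numbers pair libraries was not settled.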

Additional observations from a re-analysis of the deposited data

How the results depend on the processing

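Across all alternatives Lox was called higher with overload in both genotypes (log2 fold change 3.85 to 4.68 in control and 3.72 to 4.14 in the cdKO when a library was left out). Pcolce2 was called lower in control across all of them (-2.18 to -2.03 when a library was left out and -2.25 to -2.01 in the other alternatives). No member was called between genotypes or in the test of different responses. Replicates 1 to 3 were not taken to pair libraries. With the replicate block the members higher with overload in control stayed at 2, and the 1 member lower in the cdKO, Pcolce2, was lost (0 members, adjusted p = 0.0607). That count was 0 under all 6 alternatives and 0 to 1 when a library was left out. Members higher with overload in control numbered 1 in place of 2 without control overload replicate 2 and control sham replicate 3 together and with Y-linked CPM as a covariate, and 3 with DESeq2 size factors and with DESeq2, where Loxl1 passed. Members higher in the cdKO numbered 3 with DESeq2, again with Loxl1, and 1 to 2 when a library was left out. The cause was not tested.

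Counts over all genes for overload in control, 1768 in the analysis reported, were 712 without control overload replicate 2 and control sham replicate 3 together, 766 with the Y-linked covariate and 1060 to 2508 with a library left out. For overload in the cdKO, at 1065, they were 702 with no filter and 423 to 1287 with a library left out. In overloaded muscle the genotypes differed in 1 gene with DESeq2 and with the Y-linked covariate, 17 with no filter and 1 to 34 with a library left out, most without control overload replicate 1. In sham muscle they differed in 2 genes with DESeq2, 0 without that pair of libraries and 0 to 1 with a library left out. The test of different responses called 1 gene with DESeq2, 10 with no filter and 0 to 1 with a library left out, and the average over both loads called 2, 4 and 1 to 2.

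Signs changed for some values, none of them called. Most lay near 0, but in sham muscle the differences of Lox (-0.46) and Loxl3 (-0.34) were larger and turned without control sham replicate 2. With overload in control Pcolce was at 0.085 with DESeq2 size factors, 0.084 with DESeq2, 0.14 with no filter, 0.0076 with the replicate block and -0.13 to 0.12 with a library left out. Between genotypes in overloaded muscle Bmp1 was at 0.042 without the pair of libraries, 0.033 with the Y-linked covariate and -0.18 to 0.079 with a library left out. In sham muscle the values with a library left out were -0.72 to 0.089 for Lox, -0.16 to 0.029 for Loxl2, -0.53 to 0.19 for Loxl3 and -0.29 to 0.052 for Adamts2. In the test of different responses Lox was at 0.042, Loxl1 at 0.046 and Loxl2 at 0.016 without the pair of libraries, and Loxl2 at 0.0895 with the Y-linked covariate; with a library left out Lox was at -0.75 to 0.035 and Loxl2 at -0.41 to 0.012. Averaged over both loads Pcolce was at -0.0076 with DESeq2 size factors, -0.0097 with DESeq2 and -0.0040 without the pair, and at -0.081 to 0.077 with a library left out. Pcolce2 was at 0.0054 with the Y-linked covariate and -0.10 to 0.010 with a library left out, and Adamts2 at -0.022 to 0.15. Depth limits Loxl3 most, with 4 to 48 counts per library.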

Other observations

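Loxl4, the remaining lysyl oxidase gene, had too few counts to be tested. It gave 2, 1 and 2 counts in control sham and 19, 16 and 14 in control overload, and 2, 0 and 3 in cdKO sham and 8, 9 and 5 in cdKO overload. Its mean level in control was 4.12 CPM after sham surgery and 19.8 after overload, and in the cdKO 3.16 and 9.89. The sham libraries lie at or near the floor of 3 counts. The BMP1 relatives Tll1 and Tll2 and the ADAMTS2 relatives Adamts3 and Adamts14 gave at most 8, 2, 6 and 3 counts in any library, so no difference between groups was detectable at this depth.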
